A study of Sus scrofa with 12 samples.

Results

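Levels of the miRNA miR-378 (ssc-miR-378) were followed in uteri of newborn and 2-day-old female pigs (gilts) of crossbred Landrace, Yorkshire, Duroc and Hampshire stock. Its members are the rows of the deposited miRNA table named miR-378 with any letter or arm suffix, 3 of 420 rows: miR-378 on precursor MI0013088, miR-378 on precursor MI0016622 and miR-378b-3p on precursor MI0031641. The libraries, 12 in all, came from 3 groups of 4 gilts. The PND2N group nursed freely for 48 h, the PND2R group was given a commercial replacer of milk over the same time, and both were euthanized at 50 h of age (postnatal day 2). The PND0 group had not nursed and was collected at most 1 h after birth. Uteri were trimmed of connective tissue and otherwise taken whole, so each value mixes all cell types of the organ, and a change in the number of a cell type cannot be told apart from a change in RNA per cell. Age and feeding after birth cannot be told apart between either PND2 group and PND0. The series title asks about age and about lactocrine (milk-borne) effects on uterine miRNAs. miR-378 was selected on its measured share of reads, which is higher in PND2N than in PND0, so that contrast is described here without a test.

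miRNAs are short RNAs that lower the output of mRNAs matching their seed, the stretch of bases near the 5′ end. In mammals miR-378 lies in an intron of PPARGC1B, which encodes a coactivator of genes for mitochondrial biogenesis and oxidative metabolism. In mice it is known for restraining mitochondrial fatty acid use and for its roles in fat and muscle cells, and it is abundant in skeletal muscle and heart. In the RefSeq gene table, whose assembly is Sscrofa11.1, MIR378-1 lies within PPARGC1B, MIR378-2 within BCAS3 and MIR378B within RGS3. The files do not pair these gene symbols with the precursor IDs.

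The libraries held 37462 to 12159233 recovered miRNA reads. Libraries under 100000 reads numbered 4, of which 3 were PND2R and 1 was PND2N, and none was PND0. Levels are given as reads per 1000000 miRNA reads (rpm), each row's share of its library's total. Among the tissue markers, miR-143, miR-145, miR-199a and miR-214 of smooth muscle and mesenchyme summed to 25.1% to 36.9% of reads over all libraries. The 2 of 6 epithelial entries that matched, miR-429 and miR-205, summed to at most 0.113%, and the liver miRNA miR-122 to at most 0.00134%.

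miR-378 was a moderately abundant uterine miRNA, and both PND2 groups lay above PND0 in mean share. On MI0013088 it took 848, 1255, 747 and 828.7 rpm in PND2N replicates 1 to 4, 869, 802, 813 and 783 rpm in PND2R, and 734, 752, 504 and 543 rpm in PND0. PND2N replicate 2 was the highest library and PND0 replicate 3 the lowest. The means were 919.5 ± 228 rpm in PND2N, 817 ± 36.9 rpm in PND2R and 633 ± 128 rpm in PND0 (SD, n = 4 each). The order of the means was thus PND2N, PND2R, PND0, and neither neighbouring pair passed the test given below.

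**Figure D1:**
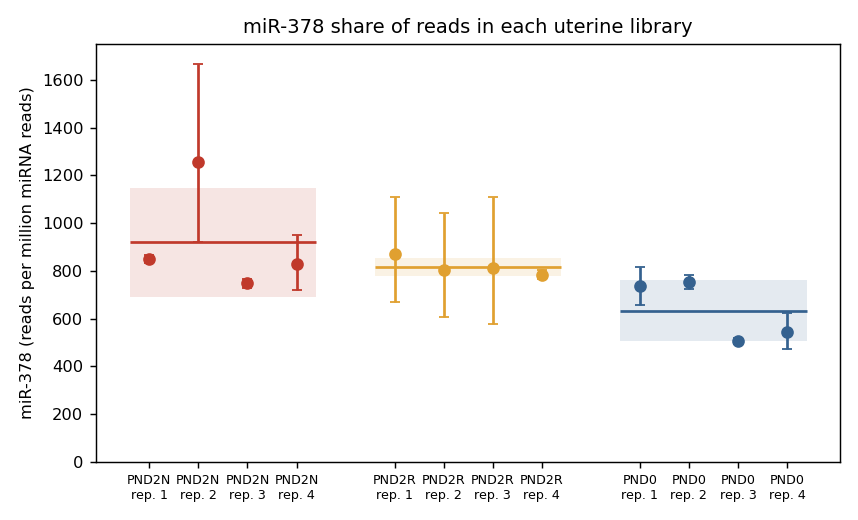
Each point is miR-378 (row of MI0013088) in 1 library, in rpm, with its exact 95% counting interval; lines are group means and bands 1 SD (n = 4 each). The 4 PND2R libraries lie at 783 to 869 rpm, above the 4 PND0 libraries at 504 to 752 rpm, while PND2N replicate 2 stands at 1255 rpm on 47 reads.

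The reads behind these levels differed widely. miR-378 had 10015, 47, 6273 and 201 reads in PND2N, 65, 56, 39 and 7359 reads in PND2R, and 341, 2677, 6126 and 204 reads in PND0. The exact (Clopper-Pearson) 95% interval of PND2N replicate 2 was 922 to 1668 rpm and that of PND2R replicate 3 was 578 to 1111 rpm. PND2N replicate 1 had an interval of 832 to 865 rpm and PND0 replicate 3 one of 491 to 517 rpm. Intervals cover the counting error of reads only, not variation between gilts. PCR reads without molecular identifiers are not independent molecules, so the intervals can be too narrow. The coefficient of variation between libraries was 24.8% in PND2N, 4.52% in PND2R and 20.2% in PND0, against 8.14%, 12.1% and 4.57% that counting alone gives. The PND2R libraries therefore lay closer together than counting error alone gives at their read numbers.

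Both miR-378 rows carried nearly the same reads. MI0013088 and MI0016622 differed by at most 2 reads in every library, with 6126 and 6124 reads in PND0 replicate 3 as the widest gap. This was common in the table: of 51 names with more than 1 row, 32 had rows within 2 reads of each other in every library. Reads of the mature miR-378 thus cannot be assigned to the copy within PPARGC1B or to the other copy, and every value below is for MI0013088 unless stated.

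miR-378b-3p, the third row, was far rarer. It had 143, 0, 84 and 4 reads in PND2N, 1, 2, 0 and 118 reads in PND2R, and 8, 47, 72 and 6 reads in PND0. A count of 0, taken as allowing up to 3 reads, allows up to 80.1 rpm in PND2N replicate 2 and up to 62.5 rpm in PND2R replicate 3 (exact 95% upper bounds of 98.5 and 76.9 rpm). With the reads of each group pooled, so that deep libraries weigh most, it stood at 11.3 rpm in PND2N, 12.6 rpm in PND2R and 8.03 rpm in PND0. Set against miR-378 itself, pooled miR-378b-3p reads came to 1.40% in PND2N, 1.61% in PND2R and 1.42% in PND0. In the 5 libraries over 1000000 reads this percentage was 1.43 and 1.34 in PND2N, 1.60 in PND2R, and 1.76 and 1.18 in PND0. The lowest of these had an interval of 0.921% to 1.48% and the highest one of 1.29% to 2.33%, and the ratio was not tested between groups.

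In nursed gilts against newborns, the contrast on which it was picked, miR-378 was 1.45 times as high by group means, and 15 of the 16 pairs of libraries had the PND2N one higher. The exception was PND2N replicate 3 at 747 rpm against PND0 replicate 2 at 752 rpm. The fitted log2 fold change was 0.53 ± 0.20 (SE), where the median over the 160 rows above the floor in all 12 libraries was -0.21. Without PND2N replicate 2, the library with 47 reads, the PND2N mean was 808 rpm against 633 rpm in PND0, and the log2 ratio of means was 0.35, where it was 0.54 with that library. With reads pooled within groups the levels were 807 rpm in PND2N and 564 rpm in PND0. For background, 2 of 268 rows (0.746%) had all PND2N libraries above all PND0 libraries, and miR-378 was not among them.

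Replacer-fed gilts took no part in the choice of miR-378, but the newborns they are set against did. All 4 PND2R libraries lay above all 4 PND0 libraries (16 of 16 pairs), with a ratio of means of 1.29. PND2R replicates 1 to 3 rest on 65, 56 and 39 reads, with intervals of 671 to 1107, 606 to 1041 and 578 to 1111 rpm. These intervals cover the 734 and 752 rpm of PND0 replicates 1 and 2. The log2 fold change was 0.39 ± 0.20 (SE; 95% interval -0.04 to 0.82), and limma gave an adjusted p of 0.532 over the 268 rows tested, so miR-378 did not pass. Without libraries under 100000 reads, which leaves PND2R 1 library, the log2 fold change was 0.33. The two-sided exact permutation test of the share over 70 splits gave p = 0.0286, the smallest value that 4 against 4 libraries allow, and 0.0571 adjusted over the 2 comparisons tested. The PND0 libraries in this comparison are those on which miR-378 was picked as low, so this is no independent check. The p-values above do not allow for that choice. Of the 268 rows, 8 (2.99%) had all PND2R libraries above all PND0 libraries, both miR-378 rows included, and 12 (4.48%) had all below. Among the 160 rows above the floor in every library, the fold change of miR-378 was the 18th highest, and 34 rows lay at least as far from 0. miR-378b-3p had a log2 fold change of -0.60 ± 1.11 (limma adjusted p = 0.924), with pooled levels of 12.6 rpm in PND2R and 8.03 rpm in PND0 in the opposite order. The pooled levels rest mostly on single libraries. PND2R replicate 4 gave 118 of 121 reads, and PND0 replicate 3, at 5.92 rpm, gave 72 of 133.

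**Figure D2:**
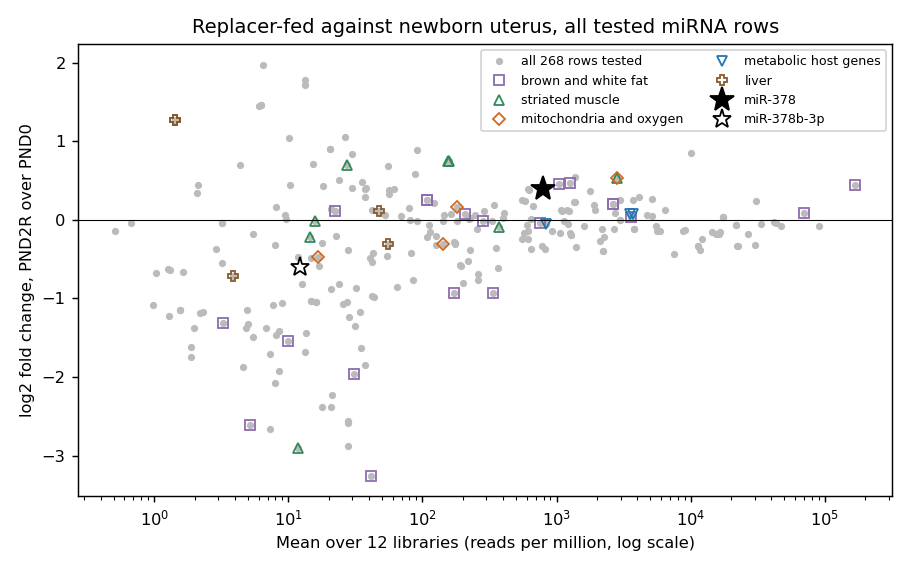
The log2 fold change of PND2R over PND0 from limma on log2(rpm + 1) (vertical axis) is plotted against the mean share over 12 libraries (horizontal axis, log scale) for the 268 rows tested. miR-378 (black star) lies at 0.39 and miR-378b-3p (open star) at -0.60, where rows of low share scatter most; open symbols mark the miRNA lists named in the text.

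Between nursed and replacer-fed gilts of the same age, miR-378 showed no difference beyond the spread. PND2N averaged 919.5 ± 228 rpm and PND2R 817 ± 36.9 rpm, with PND2N higher in 10 of 16 pairs. The log2 fold change was 0.14 ± 0.20 (SE; 95% interval -0.29 to 0.57; limma adjusted p = 0.805), and the two-sided exact permutation test gave p = 0.629, also after adjustment over the 2 comparisons. The PND2N libraries are those on which miR-378 was picked as high, so this is no independent check. The difference rests on PND2N replicate 2, without which the log2 fold change was -0.02. Pooled reads gave 807 rpm in PND2N and 784 rpm in PND2R, where replicate 4 held 7359 of the 7519 PND2R reads. A difference of up to the upper bound of the interval is not shown to be absent. miR-378b-3p had a log2 fold change of -0.30 ± 1.11 (limma adjusted p = 0.909).

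Depth ran with the groups, and miR-378 was therefore set out within depth classes. Among libraries over 1000000 reads it stood at 848 and 747 rpm in PND2N, at 783 rpm in PND2R, and at 752 and 504 rpm in PND0. Between 100000 and 1000000 reads it stood at 828.7 rpm in PND2N, and at 734 and 543 rpm in PND0. Under 100000 reads it stood at 1255 rpm in PND2N and at 802 to 869 rpm in PND2R. The means of the PND2 libraries thus lay above the PND0 mean in both classes that held PND0, but each of these classes held 2 PND0 libraries and no test was run within classes. The class under 100000 reads held no PND0 library. On the deposited values themselves, whose totals follow depth, miR-378 averaged 482 ± 325 in PND2N, 372 ± 304 in PND2R and 377 ± 164 in PND0, and the fitted log2 fold change of PND2R over PND0 turned to -0.22 ± 0.93.

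**Figure D3:**
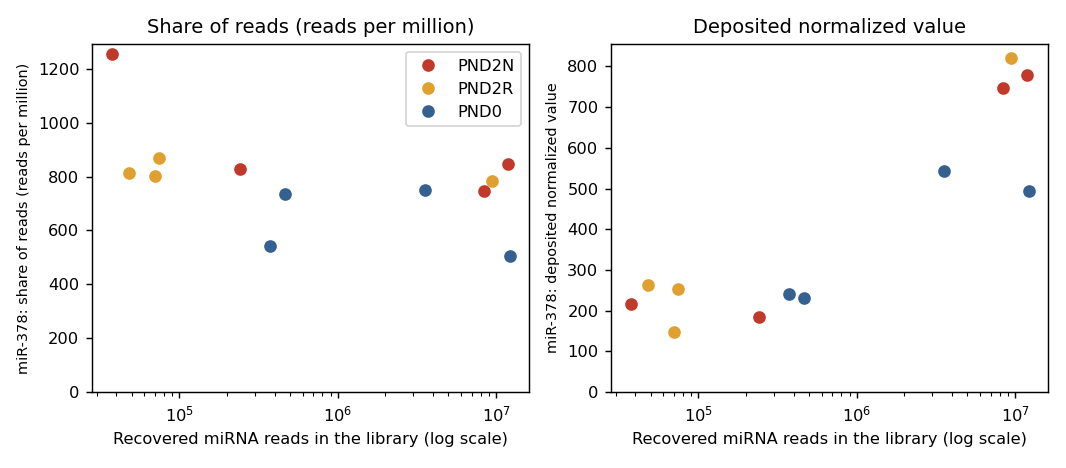
miR-378 in each library against the recovered miRNA reads (horizontal axes, log scale), as rpm on the left and as the deposited normalized value on the right, coloured by group. The deposited values are 495 to 821 in the 5 libraries over 1000000 reads and 148 to 264 in the other 7, while the shares show no such step.

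Summed muscle and mesenchymal markers had higher means in both PND2 groups than in PND0, and 1 miRNA carried most of each difference. The 9 rows of smooth muscle and mesenchyme markers, all detected, summed to 28.5% to 36.9% of reads in PND2N, 31.5% to 33.4% in PND2R and 25.1% to 30.2% in PND0. Without miR-143-3p the other rows averaged 12.6% ± 3.32 in PND2N, 15.0025% ± 0.858 in PND2R and 14.9% ± 1.37 in PND0 (SD, n = 4 each). Of the 9 rows, 3 lay above 0 and 6 below in PND2N against PND0, and 4 above and 5 below in PND2R against PND0. The 7 striated muscle rows, all detected, summed to 0.272% to 0.482% in PND2N, 0.279% to 0.432% in PND2R and 0.182% to 0.300% in PND0. Without miR-1 the others averaged 0.0320% ± 0.0200 in PND2N, 0.0502% ± 0.00720 in PND2R and 0.0322% ± 0.00759 in PND0. Of the 7 rows, 2 lay above 0 and 5 below in PND2N against PND0, and 4 above and 3 below in PND2R against PND0. For background, of the 160 rows above the floor in all 12 libraries, 40 and 71 lay above 0 in these 2 comparisons. The marker counts are not limited to such rows. The 2 rows of miR-126, of endothelium, lay the other way, at 1.04% to 1.40% in PND2N, 0.971% to 1.19% in PND2R and 1.22% to 1.53% in PND0. The 2 epithelial rows summed to 0.0320% to 0.106% in PND2N, 0.0688% to 0.107% in PND2R and 0.0857% to 0.113% in PND0. The part of these cell types in the miR-378 levels was not tested.

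The miRNA whose pattern over the 12 libraries was most like that of miR-378 was miR-143-3p, a smooth muscle miRNA and the most abundant one in this uterus. Pearson r of log2(rpm + 1) was 0.91 (Spearman rho 0.73), the highest of 158 rows. miR-143-3p took 14.6%, 28.6%, 15.2% and 20.4% of reads in PND2N, 19.7%, 18.2%, 17.2% and 15.8% in PND2R, and 16.9%, 15.1%, 8.44% and 13.1% in PND0. Like miR-378, it was highest in PND2N replicate 2 and lowest in PND0 replicate 3. Without these 2 libraries, the farthest from the median of miR-378, r was 0.69, and on deviations from the group means it was 0.87. The libraries share totals in which miR-143-3p weighs heavily, and with the 10 most abundant rows left out of the totals r was 0.96. The reduced total is shared by all rows too, and r rose with it for the next most like rows as well (0.71 to 0.84). The part of the totals in the likeness was not tested.

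Next came miR-101 (r = 0.71), miR-127 of the imprinted DLK1-DIO3 cluster (0.61), the striated muscle miRNA miR-1 (0.58) and miR-143-5p, the other arm of the miR-143 precursor (0.55). On deviations from the group means r was 0.81 for miR-101, 0.67 for miR-127, 0.28 for miR-1 and 0.58 for miR-143-5p. Without the same 2 libraries r was 0.38 for miR-101, -0.41 for miR-127, 0.84 for miR-1 and 0.63 for miR-143-5p. The likeness of miR-101 and miR-127 thus rests on these libraries. The least like were 3 members of the let-7 family, which is tied to maturation in many animals: let-7d-5p (r = -0.90), let-7g (-0.88) and let-7c (-0.87). Without the same 2 libraries r was -0.77, -0.42 and -0.63 in that order, and with the 10 most abundant rows left out of the totals it was -0.65, -0.47 and -0.51. let-7c averaged 11026 ± 1911 rpm in PND2N, 11611 ± 818 rpm in PND2R and 13688 ± 819 rpm in PND0 (SD, n = 4 each). Related let-7 members can share reads. These correlations are over the same 12 libraries, are picked as extremes and carry no test.

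**Figure D4:**
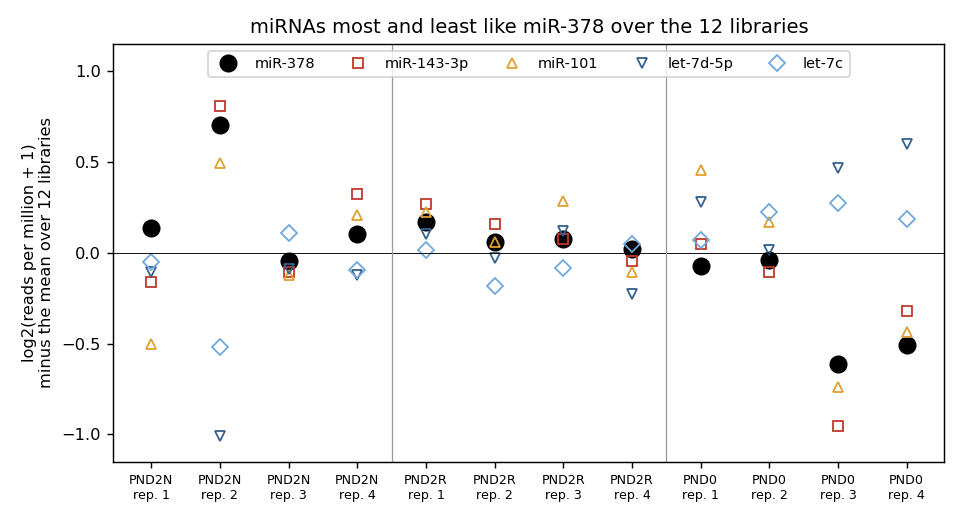
Each symbol is log2(rpm + 1) in 1 library minus the mean over the 12 libraries, for miR-378 (filled) and the miRNAs most like it (miR-143-3p, miR-101) and least like it (let-7d-5p, let-7c). miR-378 and miR-143-3p are both highest in PND2N replicate 2 and lowest in PND0 replicate 3, where let-7c is lowest and highest.

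By mean share miR-378 ranked 79th and 80th of the 420 rows with its 2 rows. The rows next above were miR-107, at 841 ± 249.7 rpm, and the let-7 relative miR-98, at 815 ± 172 rpm (SD, n = 12). Those next below were miR-204, at 777 ± 234 rpm, and miR-455-5p, a miRNA of brown fat cells in mice, at 758 ± 203 rpm. Within libraries the rank of MI0013088 was 55 to 82 in PND2N, 76 to 81 in PND2R and 81 to 92 in PND0.

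Other miRNAs tied to metabolism gave no call. By limma 0 rows passed in each of the 3 comparisons (0% of 268), and rows at an unadjusted p under 0.05 numbered 22 in the nursed against newborn comparison, 26 in nursed against replacer-fed and 27 in replacer-fed against newborn. By edgeR on recovered reads 0 passed as well (0%), and such rows numbered 17, 20 and 28 in the same order. limma voom and DESeq2 passed 0 too, with 24, 23 and 36 such rows by voom and 15, 18 and 18 by DESeq2. Of 4 entries for miRNAs within or tied to metabolic genes, miR-103 and miR-107, which lie in the introns of pantothenate kinase genes, were matched, with 3 rows. miR-103 stood at 3338 ± 1645 rpm in PND2N, 3958 ± 1198 rpm in PND2R and 3791 ± 1231 rpm in PND0. miR-107 stood at 727 ± 329 rpm, 884 ± 221 rpm and 913 ± 212 rpm in the same groups. In PND2N against PND0 the 3 rows were all below 0 (median log2 fold change -0.33, against -0.29 over all 268 rows). Of the 160 rows above the floor in all 12 libraries, 40 lay above 0 in this comparison. miR-378 was picked as higher here, so this contrast cannot set it apart from the 3 rows.

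The 4 miRNAs of mitochondria and oxygen were miR-1, miR-181c, miR-210 and miR-338. miR-210, which hypoxia induces, stood at 87.9 ± 41.9 rpm in PND2N, 146 ± 20.6 rpm in PND2R and 191 ± 70.3 rpm in PND0. miR-181c, which acts on a mitochondrially encoded transcript in rat heart, stood at 131 ± 35.8 rpm in PND2N, 219 ± 27.1 rpm in PND2R and 195 ± 25.2 rpm in PND0, lower in PND2N than in PND2R in all 16 pairs (limma adjusted p = 0.338). miR-210 was likewise lower in all 16 pairs (limma adjusted p = 0.457), as were 14 of the 268 rows (5.22%) in all. miR-338 was at the floor in 2 libraries and stood at 9.71 ± 7.36, 23.5 ± 21.3 and 17.0 ± 6.53 rpm in PND2N, PND2R and PND0. miR-1 stood at 3104 ± 769.6 rpm in PND2N, 3140.0 ± 729.6 rpm in PND2R and 2167 ± 507 rpm in PND0. It lay higher in PND2N than in PND0 in 16 of 16 pairs (limma log2 fold change 0.52 ± 0.23, adjusted p = 0.576). In all, 2 of the 268 rows (0.746%) lay so, miR-1 included. The list's median log2 fold change was -0.91 in PND2N against PND0, -0.78 against PND2R, and -0.07 in PND2R against PND0, where the medians over all 268 rows were -0.29, -0.17 and -0.13. By edgeR the list's medians were -0.27, -0.34 and 0.10, where those over all 268 rows were -0.048, -0.045 and 0.019. The sign in PND2R against PND0 thus depended on the tool, while the list's median lay above that of all rows by both tools.

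Of 13 entries for miRNAs of brown and white fat, 10 were matched, with 22 rows, of which 20 were tested. In PND2R against PND0, 11 lay above 0 and 9 below (median 0.06, against -0.13 over all 268 rows). In PND2N against PND0, 4 lay above and 16 below by limma (median -0.26, against -0.29 over all rows). By edgeR 11 lay above and 9 below (median 0.02, against -0.048 over all rows). The sign thus depended on the tool, while the list's median lay slightly above that of all rows by both tools. In PND2N against PND2R, 9 lay above and 11 below (median -0.25, against -0.17 over all rows). miR-27b-3p stood at 62951 ± 8346 rpm in PND2N, 74688 ± 9398 rpm in PND2R and 70617 ± 11573 rpm in PND0. miR-27a and miR-30c-5p averaged 2506 to 3745 rpm in every group, with SDs of 739 to 1751 rpm.

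Striated muscle miRNAs, with 8 of 10 rows tested, were split: 2 lay above 0 and 6 below in PND2N against PND0, 0 and 8 in PND2N against PND2R, and 4 and 4 in PND2R against PND0. Of the 160 rows above the floor in all 12 libraries, 40, 54 and 71 lay above 0 in the same order. The list has 5 such rows, and the counts over its 8 tested rows are not limited to them. The medians were -0.25, -0.39 and 0.26 by limma, against -0.29, -0.17 and -0.13 over all 268 rows. By edgeR they were 0.45, -0.32 and 0.79, against -0.048, -0.045 and 0.019 over all rows. The sign in PND2N against PND0 thus depended on the tool, while the list's median lay above that of all rows by both tools. miR-499-5p stood at 339 ± 52.2 rpm in PND2N, 381 ± 98.9 rpm in PND2R and 401 ± 60.5 rpm in PND0. miR-133a-3p stood at 135 ± 88.9 rpm in PND2N, 213 ± 49.1 rpm in PND2R and 127 ± 29.8 rpm in PND0, and miR-133b, which differs little from it in sequence and can share its reads, at 26.6 ± 10.03, 34.7 ± 8.15 and 21.0 ± 5.22 rpm.

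Of the 7 liver rows 5 were tested, and 2 were above the floor in all 12 libraries. The medians by limma were 0.43 in PND2N against PND0, -0.21 against PND2R, and 0.11 in PND2R against PND0. Those over all 268 rows were -0.29, -0.17 and -0.13 in the same order. By limma the rows above and below 0 numbered 3 and 2, 1 and 4, and 3 and 2. By edgeR the list's medians were 0.33, -0.18 and 0.05, where those over all rows were -0.048, -0.045 and 0.019. miR-192 stood at 71.6 ± 25.6 rpm in PND2N, 42.4 ± 14.3 rpm in PND2R and 51.4 ± 9.79 rpm in PND0. miR-194a stood at 46.3 ± 24.7, 49.2 ± 11.9 and 45.6 ± 12.1 rpm in the same groups. miR-122, which marks hepatocytes, was above the floor in 7 libraries and averaged 2.77 to 4.79 rpm.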

How the data were processed

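Small RNA was read from 500 ng of total RNA per uterus, with 6 PCR cycles and 50 bp single ends, per the labels' protocols. The submitters' processing notes name Sscrofa10.2 and FastQC; no aligner, counter or normalization was given in the sources used here. A single table was deposited by the authors, holding a normalized signal per miRNA row. From the values, this signal is a read count divided by 1 factor per library, with values under 1 raised to 1 (the floor, entered as 0 reads). Whole reads were recovered from the steps: values up to 1000 reads were whole to 0.1 of a read in 100% of cases, and values above the floor of any size in 95.9% or more per library. Up to 12 reads can lie under the floor in the deepest libraries. Shares are recovered reads per 1000000. A share falls when an abundant miRNA takes more of the reads.

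limma 3.58.1 (trend; R 4.3.3) was run on log2(rpm + 1), with 1 coefficient per group over all 12 libraries. Tests were two-sided, with Benjamini-Hochberg adjustment over the 268 rows that 4 or more libraries held above the floor (threshold 0.05). Fold changes of low rows depended on the 1 rpm added, as a 0 in a shallow library makes a large step. For miR-378b-3p, PND2R against PND0 gave -0.60, but -0.089 with 10 rpm added and -0.0019 with 50 rpm added. edgeR 4.0.16, limma voom and DESeq2 1.42.0 on recovered reads were alternatives; tests were tried on simulated counts in which rows under 1% of reads changed. When abundant rows also changed, limma on shares made false calls, as shares carry no correction for this. Intervals of single libraries are exact at 95%. Replicates are numbered in accession order. The labels do not tie the libraries to litters.

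Named miRNAs are the miR-378 rows, the 5 most and 3 least like by Pearson r (1 row per name, rows above the floor in all 12 libraries), 2 abundance neighbours on each side and up to 4 of the most abundant members per list. Members, lists and tests were chosen with earlier results of these data known. Figures used matplotlib 3.10.9.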

Additional observations from a re-analysis of the deposited data

Results flagged for a closer look

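Among 87 groups of 4 libraries looked at for the named miRNAs, 7 held a library far from the other 3 relative to the group's range; chance flags about 1 in 20 such groups. None of them was a miR-378 row. The level of miR-1 in PND2N replicate 1 was 4253 rpm, with the nearest other library at 2824 rpm. let-7d-5p stood at 667 rpm in PND2N replicate 2 on 25 reads, against 1237 rpm in the nearest other. miR-204 stood at 344 rpm in PND2R replicate 2, against 729 rpm. miR-27b-3p stood at 53261 rpm in PND0 replicate 3, against 76112 rpm. miR-30c-5p stood at 3950.3 rpm in PND2R replicate 4, against 2564 rpm. miR-194a stood at 66.8 rpm in PND2R replicate 1, against 45.3 rpm, and miR-194b-5p at 13.4 rpm in the same library, where 1 read is worth 13.4 rpm.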

How the results depend on the processing

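No row passed in any comparison under any alternative run, and no listed miRNA did. The log2 fold change of miR-378 for PND2R against PND0 reversed to -0.22 on deposited values (adjusted p = 0.908 by limma); the cause was not tested. Elsewhere it stayed above 0, with adjusted p of 0.404 to 0.987 over the alternatives, and was 0.29 to 0.48 with each library left out. For PND2N against PND2R it reversed with library weights (-0.0030), and was -0.017 to 0.23 with each library left out, reversing only without PND2N replicate 2. The other miR-378 row did the same (-0.22, -0.0029 and -0.017). miR-378b-3p changed sign often. For PND2R against PND0 it gave 0.24 by edgeR, 0.63 by limma voom, 0.15 by DESeq2 and 0.039 without libraries under 100000 reads (-1.19 to 0.44 with each library left out). For PND2N against PND2R it gave 0.13 on deposited values, 0.12 with library weights and 0.0057 without libraries under 100000 reads (-1.34 to 0.64 with each library left out). Without libraries under 100000 reads PND2R keeps 1 library, assumed to vary like the others. The log2 ratio of mean shares of PND2R over PND0 moved to -0.021 on deposited values. Of the 5 most like miRNAs, 3 were shared on deviations from the group means and 3 over libraries of 100000 reads or more, and 3 to 5 with each library left out. Counting 1 row per name and leaving the 10 most abundant rows out of the totals for likeness were chosen after seeing the data. No paired analysis was possible because the labels do not tie the libraries to litters.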
